A study of Drosophila pseudoobscura with 4 samples.

Results

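The cluster around dps-mir-2536 is a group of 6 *D. pseudoobscura* microRNA precursors on the XL arm of the X chromosome, chosen by name: dps-mir-2519, dps-mir-2520, dps-mir-2522a, dps-mir-2523, dps-mir-2536 and dps-mir-2537. They are 6 of the 231 microRNAs in the count tables. XL is the old X arm of this fly, shared with other *Drosophila* species, while XR is the neo-X arm, an autosome in *D. melanogaster*. None of the 6 has a *D. melanogaster* ortholog listed in the annotation used by the study, so they were taken as specific to the lineage. The dataset asks whether microRNAs are expressed differently in males and females. It holds 2 male and 2 female samples of adult flies aged 7 days, all from a single stock (18 °C, 12 h of light), and the females were unfertilized. The labels name no transgene or treatment, and the body parts and the number of flies in a sample are not given in the sources used here. Their small RNAs were read in 2 runs of a benchtop sequencer, the Illumina MiSeq, each with 1 male and 1 female sample. The study describes the samples of a sex as biological replicates. The sources used here do not say whether they came from separate cultures, so the p-values apply to these samples only. The spread they use is partly shared across all tested microRNAs, since so few samples leave little to estimate it for each.

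MicroRNAs are short RNAs that repress messenger RNAs with a matching site. Each is cut from a hairpin precursor, and precursors that lie close together are often transcribed as a single unit. Young microRNAs, found in few related species, tend to be expressed at a low level. Targets and roles of the 6 members are not given in the sources used here, so they are described by their place in the cluster. In bulk samples, fewer cells of a type and less RNA per cell cannot be told apart.

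In the genome assembly UCI_Dpse_MV25 the 6 precursors span 26092 bp of the X chromosome. All but dps-mir-2519 lie in an interval of 10122 bp between annotated genes, LOC4814938 on the left and LOC6901623 on the right. From the left, dps-mir-2523 lies at X:9706750-9706863 and dps-mir-2522a at X:9707838-9707949. After a gap of 3152 bp comes a compact trio of 377 bp in all. The trio starts with dps-mir-2520 at X:9711102-9711221. It continues after 11 bp with dps-mir-2537 at X:9711233-9711312, and ends after a further 55 bp with dps-mir-2536 at X:9711368-9711478. The last member, dps-mir-2519 at X:9732724-9732841, is 21245 bp away, beyond LOC6901623. It is grouped here by name, although this gap is wider than the distance within which the study joined microRNAs into clusters. It lies within the span of the gene out (X:9725662-9735353), which in *D. melanogaster* encodes a putative monocarboxylate transporter. The gene table has no exons, so it cannot be said whether this is exonic or intronic, and the strand is not given in the sources used here.

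The libraries were shallow, and this sets what can be read from the cluster. Male totals were 5697 reads in run 1 and 67076 in run 2, and female totals were 7111 and 42754. A level of 3 reads, taken as the floor, was 527 and 44.7 CPM (reads scaled to the library total) in males, and 422 and 70.2 in females. Pooled over both runs, 3 reads were 41.2 CPM in males and 60.2 in females. Levels below are CPM of the library total. Reads carry no molecular identifiers, so intervals and floors cover counting error only. At least 1 read was counted for 131 of the 231 microRNAs.

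The cluster gave 65 reads in all, and 59 of them were in the male libraries. At least 1 read was counted for 4 of the 6 members. Most of the reads came from dps-mir-2536 and dps-mir-2520, at the ends of the trio. Both were higher in males in each run, but the 4 and 1 male reads of run 1, against 0, do not resolve a difference. The other detected members, dps-mir-2537 and dps-mir-2519, had 3 and 6 reads, spread over both sexes. No read of dps-mir-2522a or dps-mir-2523 was counted in any of the 4 libraries, which by the floor of 3 reads allows levels of up to 41.2 CPM in males and 60.2 in females. These zeros and limits describe the deposited counts only, since the study lists a nonzero level of both in the same samples.

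The most abundant member, dps-mir-2536, was read 4 and 32 times in males, and 0 and 2 times in the female libraries. In CPM these were 702 in the male library of run 1 and 477 in that of run 2, against 0 and 46.8 in females. The male and the female libraries did not overlap, and the pair of males differed less from each other than from either female. Here and below, with 2 libraries of each sex, such a separation can easily arise without a sex difference. Its frequency over all microRNAs was not counted. The male mean was 590 ± 159 CPM and the female mean 23.4 ± 33.1 (SD, n = 2 each). With both runs pooled, the level was 12.3 times as high in males, with a 95% counting interval from 3.18 to 106 (exact, Clopper-Pearson). The width of this interval follows from the 2 female reads. In run 2 alone the ratio was 10.2, from 2.60 to 87.8. In run 1 the female library had no read, and the male level was 1.66 times the female floor of 3 reads. The exact counting interval of the ratio in run 1 starts at 0.824, so this run alone does not resolve a difference.

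The reads of dps-mir-2520 were all male. There were 1 and 17 in the male libraries, and none in either female library, which gives 176 and 253 CPM in males, or 214 ± 55.1 (SD, n = 2). The male and female libraries did not overlap, but in run 1 the difference was a single read. The exact counting interval of the run 1 ratio starts at 0.0320, so this run alone does not resolve a difference. Pooled over the runs, the male level was 4.11 times the female floor of 3 reads, and the exact counting interval of the ratio starts at 3.01. In run 2 alone it was 3.61 times the floor, with an interval that starts at 2.63.

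Between these neighbors, dps-mir-2537 had 1 read in each male library, none in the female library of run 1 and 1 in that of run 2. The pooled ratio was 1.37, with a counting interval from 0.0713 to 80.9, and the sexes overlapped. Its reads are too few to give a direction. The distant dps-mir-2519 had no male read in run 1 and 3 in run 2, and its female reads were 1 and 2. The means were 22.4 ± 31.6 CPM in males against 93.7 ± 66.4 (SD, n = 2 each). The pooled ratio was 0.685, from 0.0918 to 5.12. Both female values, 141 and 46.8 CPM, were above the higher male value of 44.7, but in run 2 the sexes differed by much less than the counting error. Its reads were 3 in each sex, while those of the other members together were 56 male and 3 female.

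**Figure D1:**
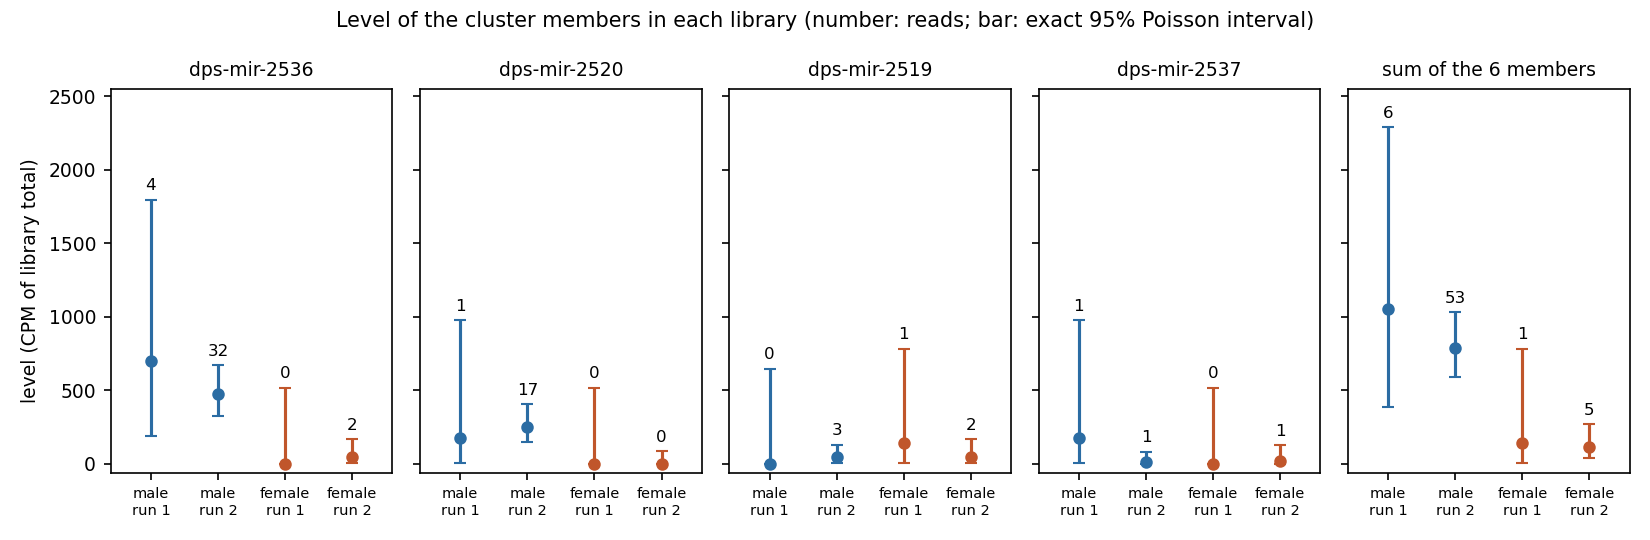
Level of the 4 detected members and of the sum of the 6 members (CPM of the library total, vertical axis) in each of the 4 libraries (horizontal axis, males in blue and females in orange). Points are single libraries, bars are exact 95% Poisson intervals and the number above each bar is the read count. For dps-mir-2536, dps-mir-2520 and the sum, both male points lie above both female points, and the intervals of run 1 are wide.

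The members took unequal shares of the cluster's reads. Of the 59 male reads, dps-mir-2536 had 61.0% (95% exact binomial interval 47.4 to 73.5) and dps-mir-2520 had 30.5% (19.2 to 43.9). The reads of dps-mir-2537 were 3.39% (0.413 to 11.7), although its precursor is enclosed by the others within 377 bp. Those of dps-mir-2519 were 5.08% (1.06 to 14.1). For dps-mir-2522a and dps-mir-2523, 0 of 59 reads allow a share of up to 5.08% by the floor of 3 reads, and of up to 6.06% by the exact interval. The intervals of dps-mir-2536 and dps-mir-2520 do not overlap with each other or with those of the other detected members. The intervals of dps-mir-2537 and dps-mir-2519 overlap, so their order is not resolved. The counts are reads of a precursor, not scaled by length. Where the reads lie within a precursor was not examined. The order is the same in run 2, with 32 and 17 male reads for dps-mir-2536 and dps-mir-2520.

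**Figure D2:**
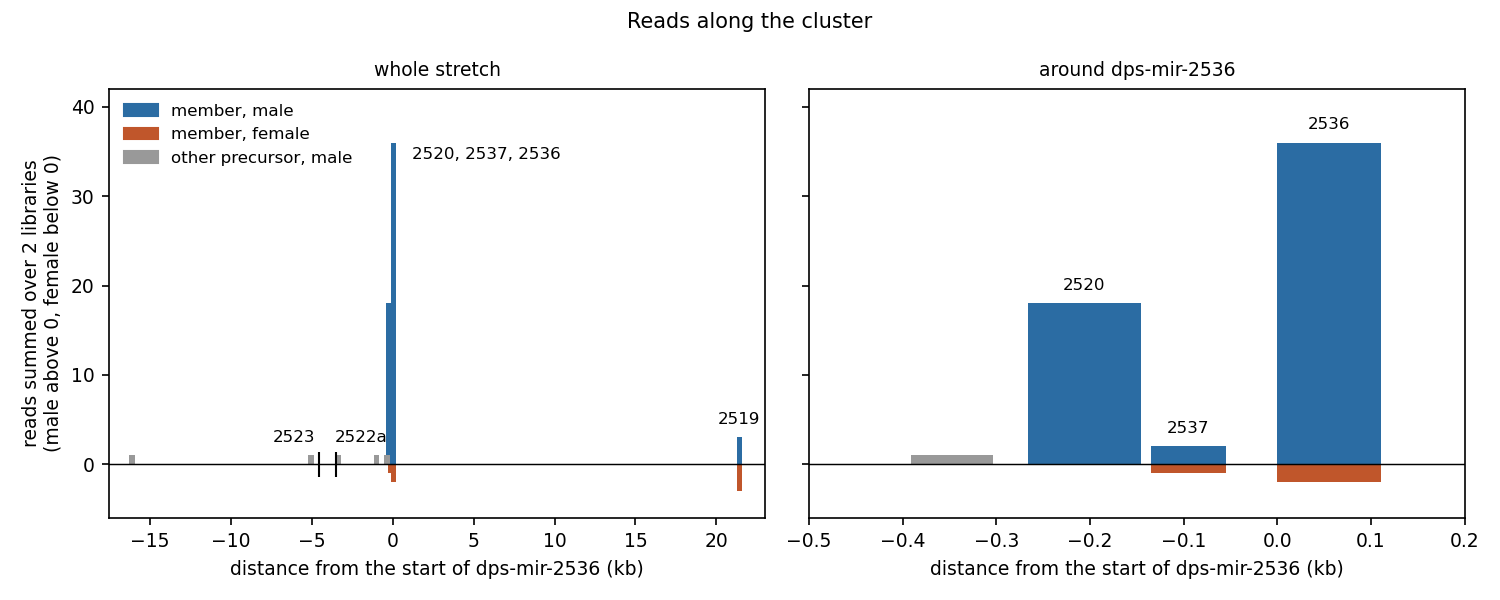
Reads summed over the 2 libraries of each sex (vertical axis, male above 0 and female below) against the distance from the start of dps-mir-2536 (kb, horizontal axis), for the whole stretch and for the surroundings of the trio. Bars of the left panel are widened to be visible and those of the right panel have the width of the precursor, gray bars are other precursors with reads, and black ticks mark the members without reads. The 36 and 18 male reads of dps-mir-2536 and dps-mir-2520 stand on both sides of dps-mir-2537, with 2.

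Summed over the 6 members, the male libraries held 6 and 53 reads of the cluster, and the female ones 1 and 5. In CPM this is 1053 and 790 for males, against 141 and 117 for females. The means were 922 ± 186 and 129 ± 16.7 (SD, n = 2 each). The cluster was a small part of each library, 0.105% and 0.0790% of the male reads and 0.0141% and 0.0117% of the female reads. The sexes did not overlap, and the difference was larger than the spread within each sex. The pooled male to female ratio was 6.74, with a counting interval from 2.92 to 19.1. Of the 65 reads, 90.8% were male (81.0 to 96.5), while male libraries held 59.3% of all reads. Within the runs the ratio was 7.49 in run 1 (0.909 to 344) and 6.76 in run 2 (2.72 to 21.7), so that the values are similar while the first alone does not resolve a difference. Since the members were chosen with earlier results of these data known, no p-value is given for the sum. The ratio rests on the ends of the trio. Without dps-mir-2536 it was 3.94 (1.35 to 15.7). Without dps-mir-2520 as well, a setting added after seeing the data, 5 male and 4 female reads remained and the ratio was 0.857 (0.184 to 4.32).

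Differential expression was tested with edgeR's quasi-likelihood test with run and sex in the model. It covered every microRNA whose base mean, the mean count after scaling by DESeq2's size factors, reached 1. A microRNA was called at a false discovery rate (FDR) under 10% and a difference of at least 25%. Of the 84 microRNAs tested, 11 were called, or 13.1%, and 5 of them, or 5.95%, were overexpressed in males. Of the 6 members, 4 were tested, and 1 was called, dps-mir-2536. The filter bears on these tests, since 3 of the 4 reached it through the sex in which they were higher. Male reads alone gave dps-mir-2536 a base mean of 5.46 and dps-mir-2520 one of 1.85, and female reads alone gave dps-mir-2519 one of 1.09. For dps-mir-2537 male reads gave 0.985 and female reads 0.0926, so it needed both. The filter also leaned on the shallow run 1, where a single read in the male library adds 0.931 to a base mean. With the same size factors, dps-mir-2520, dps-mir-2537 and dps-mir-2519 would each be under the filter without their 1 read in run 1. The log2 fold change of dps-mir-2536, male against female, was 3.79 (standard error 0.61, adjusted p = 0.0295), and it was the 7th largest towards males of the 84. The median log2 fold change of the 84 was 0.46 with the TMM normalization used here, and 0.09 with DESeq2's size factors. Relative to the first, dps-mir-2536 was higher by 3.33. The direction of dps-mir-2536 was the same in both runs and under each of the 12 alternatives, in which the adjusted p ran from 5.3e-05 to 0.302.

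The test of dps-mir-2520 gave an adjusted p of 0.116 with edgeR and it was not called, with an unadjusted p of 0.0180. Its fitted log2 fold change was 6.05 (standard error 1.47). Both female libraries were at 0, so this value depends on edgeR's default prior count, not on the 2 used for log2 CPM. DESeq2 called dps-mir-2520 (adjusted p = 0.0432) together with dps-mir-2536 (adjusted p = 0.0237). By that method 10.7% of the 84 were called as overexpressed in males. Over the 11 alternatives that tested dps-mir-2520, the adjusted p ran from 0.00838 to 0.817. Limma-voom called dps-mir-2536 (adjusted p = 0.0589) and not dps-mir-2520 (adjusted p = 0.157). Neither dps-mir-2537 nor dps-mir-2519 was called in any setting. Their log2 fold changes were 0.76 (standard error 2.45, adjusted p = 0.937 with edgeR) and -0.24 (standard error 1.61, adjusted p = 0.957 with edgeR). Of the 84 microRNAs, 57 had a log2 fold change above 0, and so had 3 of the 4 members.

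**Figure D3:**
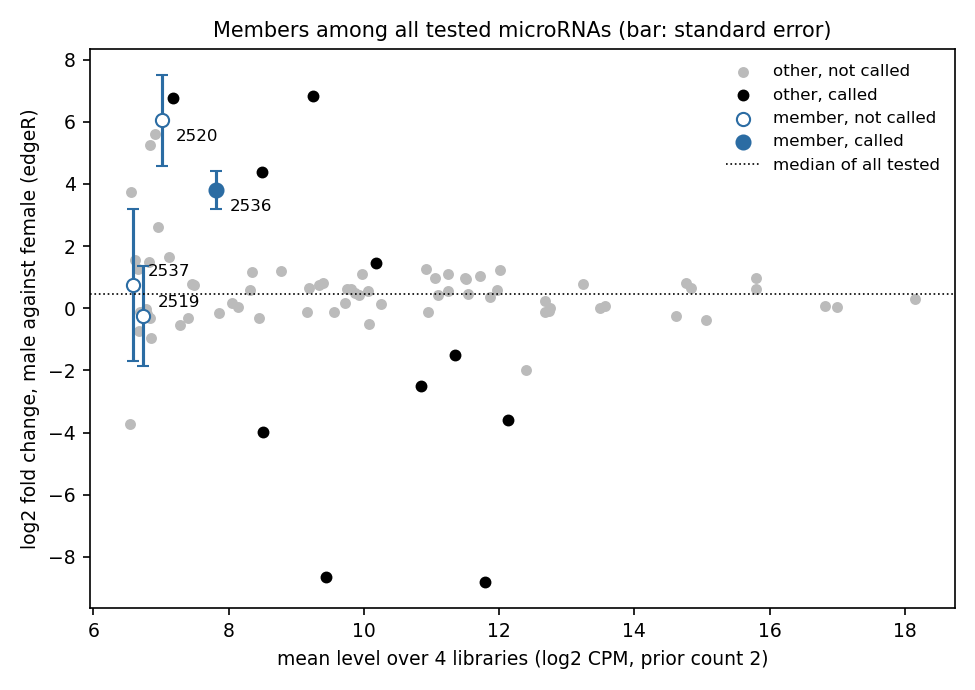
Log2 fold change, male against female (edgeR, vertical axis), against the mean level over the 4 libraries (log2 CPM with a prior count of 2, horizontal axis) for the 84 tested microRNAs. Filled symbols are called, blue symbols are the members with their standard errors, and the dotted line is the median of all. The members lie at the low end of expression, with dps-mir-2536 at 3.79 as the only one called.

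The call of dps-mir-2536 was not kept in every fit with 1 library left out. Fewer microRNAs in all were also called in these fits, so a lost call is not particular to this member. With 3 libraries the run cannot stay in the model, so these fits had the sex only. The lone sample of a sex was then assumed to vary like the others. Without the male library of run 2 it was called (edgeR, adjusted p = 0.0501). It was not called without the male library of run 1 (edgeR, adjusted p = 0.302), without the female library of run 1 (0.223) or without that of run 2 (0.288). Its log2 fold change in these 4 fits lay between 3.29 and 6.96, and the highest came without the female library that held its 2 reads. With all 4 libraries, dps-mir-2536 was called in each of the other 8 settings, with log2 fold changes from 3.34 to 4.04, and dps-mir-2520 in 5 of the 7 that tested it. With 3 libraries, dps-mir-2520 was called in 0 of 4 fits.

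**Figure D4:**
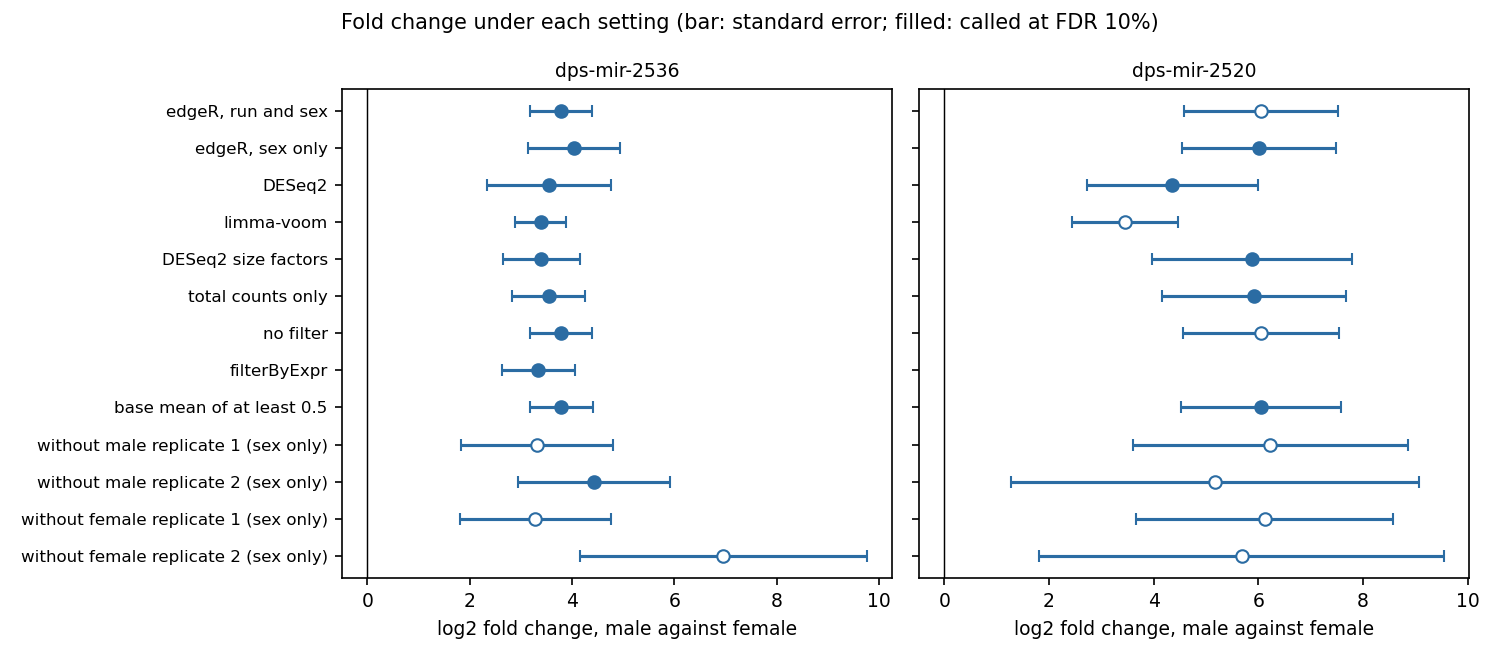
Log2 fold change, male against female, of dps-mir-2536 (left) and dps-mir-2520 (right) under each setting, with standard errors. Filled circles are called at an FDR of 10%. All values are above 0, and those of dps-mir-2520 come from fits where the female libraries had no read, as does that of dps-mir-2536 without female replicate 2.

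The annotation lists 22 other precursors in a longer stretch of XL around the members, from dps_3416 to dps-mir-2519, and 20 of them are in the count tables. Only 5 of the 20 had a read, a single one each: dps-mir-2544, dps_61, dps_55, dps-mir-2522b and dps-mir-2521. Of these, dps-mir-2544 and dps_61 lie to the left of the first member, dps-mir-2523. All 5 reads were in male libraries, 1 in run 1 and 4 in run 2. Their sum of 68.7 CPM in males against 0 in females has a counting interval for the ratio that starts at 0.628, so no sex difference was detectable at this depth. None of the 20 entered the test. One of the 5, dps-mir-2521, ends just before dps-mir-2520 starts. Outside this longer stretch, the nearest XL microRNA with at least 10 reads was dps-mir-31b, a conserved microRNA 205 kb to the right of dps-mir-2536. Its reads were 4 and 87 in males against 3 and 45 in females. With edgeR it was not called (log2 fold change 0.63, standard error 0.28, adjusted p = 0.238). To the left no XL microRNA in the tables had 10 reads.

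Few other microRNAs without an ortholog had enough reads to be tested. On XL there were 32 besides the members, a list that can include precursors of the longer stretch described above. Of the 32, 10 had a read and 1 was tested, dps_2613. Male libraries had 13 and 28 of its reads and female libraries 13 and 15, and it was not called (log2 fold change 0.43, standard error 0.28, adjusted p = 0.446 with edgeR). Off XL, 12 of 86 with a listed position and no ortholog were tested and 2 were called, both as overexpressed in males, and their median log2 fold change was 0.88, against 0.46 for all 84. A further 7 microRNAs have no position in the annotation and are in none of these lists, among them dps-mir-2517-4, which was called as overexpressed in males. On XL with an ortholog, 4 were tested and none was called by edgeR. Their log2 fold changes ran from -0.49 to 2.60, with a median of 0.70 and 3 above 0. The largest had an adjusted p of 0.108 with edgeR. Whether the members differ from these lists was not tested.

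The microRNAs whose profile was most like the summed reads of the cluster were found from log2 CPM over the 4 libraries, each profile centered on its own mean. Among the 80 other tested microRNAs the Euclidean distance to the cluster had a median of 2.72. The 5 nearest were dps_18 at a distance of 0.67, dps-mir-2509 at 0.71, dps-mir-2517-4 at 0.82, dps-mir-2510 at 1.13 and dps-mir-932 at 1.21. None of them has a listed position on the X chromosome, and dps-mir-2517-4 has no position in the annotation used. In read counts, dps_18 had 1 and 12 in males and 0 in both female libraries, dps-mir-2509 had 1 and 9 against 0, and dps-mir-2510 had 1 and 29 against 0. The reads of dps-mir-2517-4 were 6 and 51 in males against 1 and 1, and those of dps-mir-932 were 5 and 32 against 1 and 13. With edgeR, dps-mir-2517-4 (adjusted p = 0.0144) and dps-mir-2510 (adjusted p = 0.0537) were called. With so few reads, the likeness over 4 libraries is a description.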

How the data were processed

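The authors trimmed adapters with Cutadapt 1.18, mapped reads to the *D. pseudoobscura* genome (annotation release 104) with HISAT2 2.2.1 and counted them with featureCounts 2.0.2 on precursors of miRBase 21 and added annotations, without microRNAs that match several places identically. They deposited raw counts per library, not normalized; 1 blank line per file was dropped. Precursor positions and orthologs are those of the study's annotation, and gene spans are from RefSeq (UCI_Dpse_MV25).

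The members, lists and tests were chosen with earlier results of these data known. The replicate number was taken as the sequencing run, since the study placed 1 male and 1 female sample in each run. Differences between runs in males and females correlated across the 84 tested microRNAs (r = 0.567). Both run 1 libraries were also the shallower ones, which can give such a correlation by itself, so it does not test the pairing. The model was run plus sex, as in the study, in edgeR 4.0.16 (TMM, glmQLFit, glmQLFTest, Benjamini-Hochberg over the 84). The study's methods, DESeq2 1.42.0 (local fit) and limma 3.58.1 (voom), served as alternatives, with other normalizations, filters and left-out libraries (R 4.3.3). Standard errors with edgeR are the absolute log2 fold change over the square root of F. Ratios pool the reads of a sex over its library totals, with exact intervals from SciPy 1.17.1. The fits were tested on simulated data with planted sex differences. This checked the recovery and sign of these, not the rate of false calls at the low counts of the members.

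The microRNAs named are the 6 members, other precursors of the surrounding stretch of XL with a read, the nearest XL microRNAs with at least 10 reads, tested XL microRNAs without an ortholog, and the 5 most similar profiles (log2 CPM, prior count 2). Shared seeds were not examined. Mature sequences were not used here.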

Additional observations from a re-analysis of the deposited data

How the results depend on the processing

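The number of members called was 2 in place of 1 with no replicate block, with DESeq2, with DESeq2 size factors in edgeR, with total counts only and with a base mean of at least 0.5, since dps-mir-2520 was then called too. It was between 0 and 1 when 1 library was left out. The number of microRNAs called, 11 of 84, was 17 with DESeq2, 6 with limma-voom and 2 to 6 when a library was left out. Of the 84, 9 were called with no replicate block, 13 with DESeq2 size factors in edgeR and 16 with total counts only. At a base mean of at least 0.5, 13 of 92 microRNAs were called. With total counts only, 9 of 16 called were overexpressed in males, against 5 of 11 with TMM. The pairing by run (replicate block) changed no other call of a member. The log2 fold change of dps-mir-2537 fell to -0.53 without male replicate 1, where it rests on 1 male read. Without dps-mir-2536 and dps-mir-2520 the ratio of summed reads was 0.857, since these members hold 54 of the 59 male reads. In its other 10 settings it stayed between 3.94 and 8.75, and between 5.77 and 8.75 when a library was left out. With edgeR's expression filter, filterByExpr, dps-mir-2536 is the only member tested. Depth limits all values of the cluster: in run 1 a level under 527 CPM in males or 422 in females is below 3 reads.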
